A study of Homo sapiens with 346 samples.

Results

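The SR and hnRNP splicing factor genes are here the rows of the gene tables whose symbol is SRSF followed by a number or begins with HNRNP. Of 41 such rows, 4 that RefSeq lists as pseudogenes were left out, and 37 genes of 31463 in either table remained, 12 SRSF and 25 HNRNP genes. They were measured in single cells of the colorectal carcinoma line HCT-116 and of a line labelled HepG2, a name known for a liver carcinoma line, as 91 live and 92 fixed HCT-116 cells and 68 live and 83 fixed HepG2 cells. Live cells were stained with propidium iodide and sorted, without storage, for Smart-seq2, a full-length cDNA method. Fixed cells had first been kept in 80% methanol at -80 °C for 1 week, then rehydrated, washed and sorted. Fixation, these handling steps and library batch therefore cannot be told apart. No label gives a culture, so the cells of a line under 1 treatment count as 1 sample, SDs are over cells, and no test between treatments or lines was run. The HepG2 cells came from separate replicate experiments, which no label marks, and HepG2 means and SDs may mix experiments, whereas the HCT-116 experiment was run once.

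SR proteins bind exonic RNA through RNA recognition motifs and carry a tail rich in serine and arginine, through which they recruit the spliceosome. HnRNP proteins coat nascent RNA, and many of them oppose SR proteins at nearby sites. Many genes of both families limit their own level by splicing a cassette exon with a premature stop codon (a poison exon) into their RNA, which nonsense-mediated decay then removes.

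Some of these exons are shown first: those of SRSF3 and SRSF6, whose non-coding records are among the results, and that of SRSF4, which was lower in fixed cells and had no non-coding record. GENCODE lists the exons in transcripts marked for nonsense-mediated decay and not in the canonical transcript. Each line below holds bases around the premature stop, 5′ to 3′ on the strand of the gene and in GRCh38, with the stop codon in capitals. The SRSF3 exon is 456 bases long and its window is chr6:36599840-36599866 on the plus strand, the SRSF6 exon 268 bases with chr20:43459290-43459316 on the plus strand, and the SRSF4 exon is shown with chr1:29165997-29166023 on the minus strand. The RefSeq records counted below were not matched to these exons by coordinates.
SRSF3: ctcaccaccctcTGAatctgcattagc
SRSF6: gccttttgccatTAGacgcagggtgat
SRSF4: ttacaaggaaaaTGAgtgaatgtggga

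The depth of a cell, recovered from the spacing of values in the transcript tables, ran from 0.2 to 5.3 M reads (M, mega), with group medians of 1.8 to 2.5 M reads, and every cell had at least 7572 genes with a TPM (a level scaled to a fixed total per cell and already divided by transcript length) above 0. In HepG2, 1 live and 1 fixed column held equal values, and 6 other fixed columns correlated above 0.95 with each other. Of 17 hepatocyte markers, 9 had a row in the HepG2 table and none exceeded 1 TPM in 50% of its cells, so the line is called by its label only. TPM shares its total with ribosomal RNA: in HCT-116, RNA18S5 averaged 255152 ± 48162 TPM in live cells and 76548 ± 21040 TPM in fixed ones (SD, n = 91 and 92 cells), and 55075 ± 17091 and 22615 ± 8309 in HepG2 (n = 68 and 83 cells). Over all genes, fixed cells had a median log2 ratio to live cells of 0.17 in HCT-116 and 0.15 in HepG2, or -0.15 and -0.03 with ribosomal RNA left out. Ratios below are as deposited and are to be read against those medians.

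The members together took 0.399% of the TPM total of live HCT-116 cells and 0.461% of that of fixed ones, and 0.355% and 0.370% in HepG2. The 10 with the highest level, as the mean of the 4 groups, were HNRNPA1, HNRNPC, HNRNPA2B1, HNRNPH1, HNRNPK, SRSF7, HNRNPF, SRSF2, SRSF3 and SRSF5. HNRNPA1, a shuttling protein that favours exon skipping, led in every group. In HCT-116 it averaged 735 ± 206 TPM in live cells and 988 ± 282 TPM in fixed ones, and in HepG2 599 ± 203 and 708 ± 185.7 TPM. HNRNPC, which binds uridine tracts, followed with 541 ± 102.7, 737 ± 152.7, 338 ± 106.2 and 428 ± 119.3 TPM in the same order. HNRNPA2B1, the closest relative of HNRNPA1 among these, averaged 399 ± 128.9, 437 ± 155.6, 291 ± 114.1 and 266 ± 102.4 TPM. In live HepG2 cells HNRNPC, HNRNPA2B1, HNRNPH1, HNRNPK and SRSF7 each differed from the next in this order by less than the SD over cells. The 3 top genes of a group supplied 34.6% to 46.9% of the summed level of all members.

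**Figure D1:**
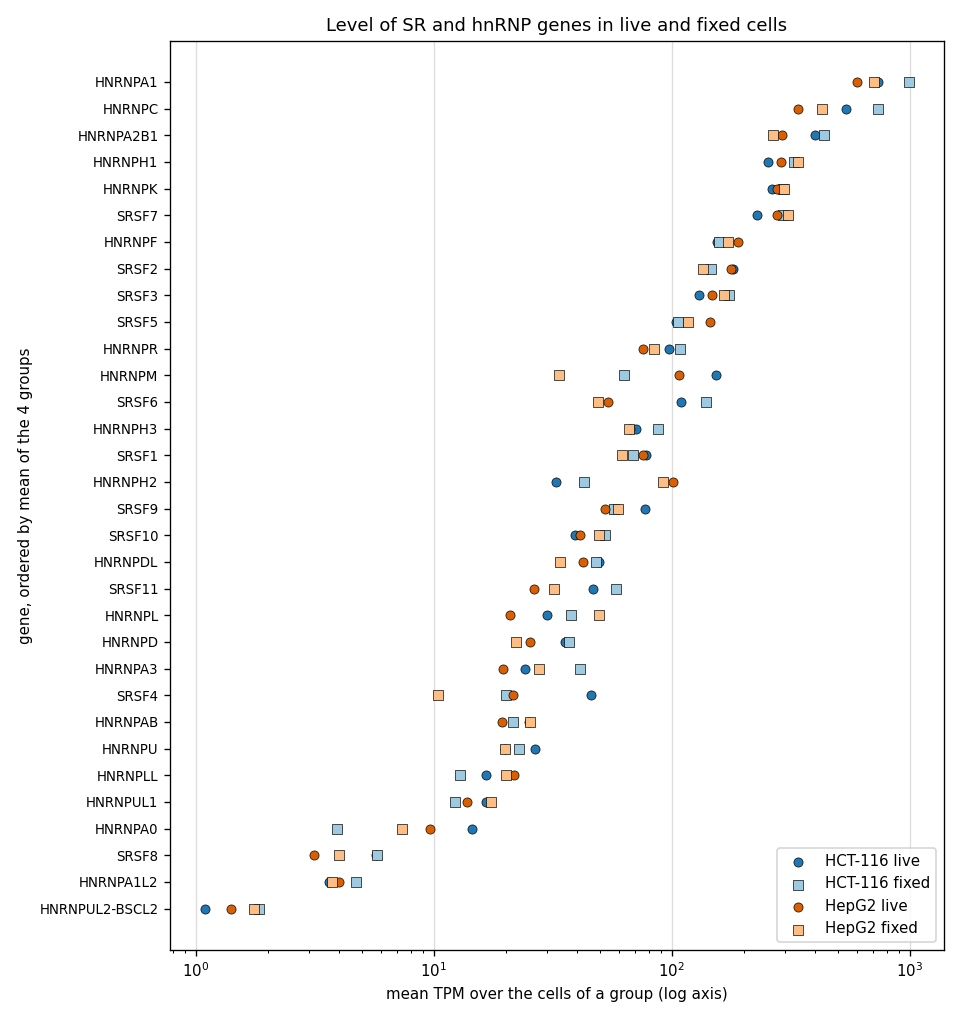
Mean TPM (log axis) of each member whose mean over the 4 groups is at least 1 TPM, ordered by that mean, with 1 symbol per group (circles live, squares fixed). HNRNPA1 is at the top in all groups, and the symbols of HNRNPM, SRSF4 and HNRNPA0 spread more widely than those of their neighbours.

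At the other end, SRSF12, HNRNPCL1, HNRNPCL2 and HNRNPCL4 averaged below 1 TPM in all 4 groups. SRSF12 was detected, with a TPM above 0, in 12 of 91 live and 13 of 92 fixed HCT-116 cells (13.2% and 14.1%, exact 95% intervals 7.004% to 21.9% and 7.74% to 22.95%). Reads of HNRNPA1 and HNRNPA1L2, of HNRNPC and the HNRNPCL genes, and of HNRNPUL2 and the readthrough gene HNRNPUL2-BSCL2 can be shared between near-identical or overlapping sequence, so the lower gene of each pair is uncertain. In contrast, 26 members were detected in every live and 23 in every fixed HCT-116 cell. In HepG2, 25 were detected in every live and 25 in every fixed cell, but HNRNPAB and HNRNPH2 were in the fixed set alone and HNRNPA0 and HNRNPD in the live set alone.

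The first comparison asked which splicing factor transcripts differed between fixed and live cells. In both lines HNRNPM and SRSF4 were lower in fixed cells by more than 2-fold as deposited, whereas most members, including the most abundant, stayed within 1.5-fold. HNRNPA0 was lower beyond 1.5-fold in HCT-116, HNRNPA3 was higher there, and HNRNPL was higher in HepG2.

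Of 32 members with a mean of at least 1 TPM over the 2 HCT-116 groups, 3 were at least 1.5 times lower in fixed cells (HNRNPA0, HNRNPM and SRSF4) and 2 at least 1.5 times higher (HNRNPA3 and HNRNPUL2-BSCL2). Over all 11742 genes at that level 16.2% were lower and 12% higher. In HepG2, 33 members passed, of which 2 were lower (HNRNPM and SRSF4) and 2 higher (HNRNPL and HNRNPUL2), against 17.3% and 15.5% of 12418 genes. The median log2 ratio of the members was 0.14 in HCT-116 and 0.10 in HepG2, near those of all genes. With ribosomal RNA left out these medians were -0.17 and -0.07, so the sign of the family medians depended on the scaling. Among genes at 10 TPM or more, as deposited, the member medians were 0.14 and 0.05, below the 0.26 and 0.24 over all genes. The split of members also moved in HCT-116, where with ribosomal RNA left out none was higher and 7 were lower (HNRNPA0, HNRNPM, SRSF4, SRSF9, HNRNPUL1, HNRNPLL and SRSF2), beside 472 higher and 3284 lower of 12318 genes. Over the 11 SRSF genes that passed, the medians in HCT-116 and HepG2 were 0.02 and 0.15, and over the HNRNP genes (21 and 22) 0.15 and 0.05. HNRNPM and SRSF4 were the members lower beyond the fold in both lines, where 9.95% of 10392 genes were, and no member was higher beyond it in both, where 3.8% were. With cells paired on total reads, HNRNPA3 was higher beyond the fold in both lines.

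HNRNPM encodes a nuclear RNA-binding protein that favours exon skipping at GU-rich sites. Its level in live HCT-116 cells ran from 28.3 to 423 TPM with a median of 149.6 TPM, and in fixed cells from 2.87 to 153.04 TPM with a median of 63.4 TPM. In HepG2 it ran from 10.8 to 223 TPM (median 112.4) in live and from 5.22 to 103.2 TPM (median 33.1) in fixed cells. The ranges overlapped, but 91 of 92 fixed HCT-116 cells and all 83 fixed HepG2 cells lay below the median live cell. The mean was 2.45-fold lower in fixed HCT-116 cells (153.5 ± 59.96 to 62.7 ± 28.8 TPM, log2 ratio -1.29) and 3.20-fold lower in HepG2 (107.4 ± 39.6 to 33.5 ± 16.97 TPM, log2 ratio -1.68). Its 2 main coding records, NM_005968 and NM_031203, were both lower: 124.01 ± 52.1 to 60.6 ± 44.1 CPM and 80.7 ± 41.8 to 42.97 ± 31.8 CPM in HCT-116, and 153.6 ± 66.3 to 48.9 ± 29.9 CPM and 39.9 ± 24.1 to 11.5 ± 18.2 CPM in HepG2 (CPM, reads scaled to a fixed total per cell and not divided by length). NM_005968 took 59.1% and 55.8% of the gene's CPM in live and fixed HCT-116 cells and 78.3% and 78.7% in HepG2. The deposited transcript values are named TPM, and were read as CPM from their spacing.

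SRSF4, an SR protein with a long serine- and arginine-rich tail, ran from 9.28 to 104.1 TPM (median 44.4) in live and from 0 to 72.7 TPM (median 18.4) in fixed HCT-116 cells. In HepG2 it ran from 0 to 46.3 TPM (median 18.7) in live and from 0 to 39.5 TPM (median 8.45) in fixed cells. The groups overlapped, with 88 of 92 fixed HCT-116 cells and 71 of 83 fixed HepG2 cells below the live median. The mean was 2.29-fold lower in HCT-116 (45.8 ± 18.6 to 20.03 ± 13.9 TPM, log2 ratio -1.19) and 2.07-fold lower in HepG2 (21.6 ± 11.8 to 10.4 ± 7.93 TPM, log2 ratio -1.05). With ribosomal RNA left out, the log2 ratios were -1.51 and -1.23 for SRSF4 and -1.61 and -1.85 for HNRNPM. With the equal HepG2 columns left out the HepG2 ratios were -1.06 and -1.69, and with the 6 very similar columns left out -1.02 and -1.64. With cells paired on total reads (53 per group in HCT-116 and 38 in HepG2), they were -1.21 and -0.85 for SRSF4, under 2-fold in HepG2, and -1.33 and -1.59 for HNRNPM.

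HNRNPA0, which binds AU-rich elements, ran from 1.63 to 38.7 TPM (median 13.1) in live and from 0 to 16.8 TPM (median 2.85) in fixed HCT-116 cells. It was detected in all 91 live cells and in 75 of 92 fixed ones (81.5%, exact 95% interval 72.1% to 88.9%). In HepG2 it ran from 0.152 to 24.5 TPM (median 9.49) in live and from 0 to 30.9 TPM (median 6.45) in fixed cells. The mean was 3.69-fold lower in fixed HCT-116 cells (log2 ratio -1.88) and 1.30-fold lower in HepG2 (log2 ratio -0.38). Whether the lines differ in this ratio was not tested.

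**Figure D2:**
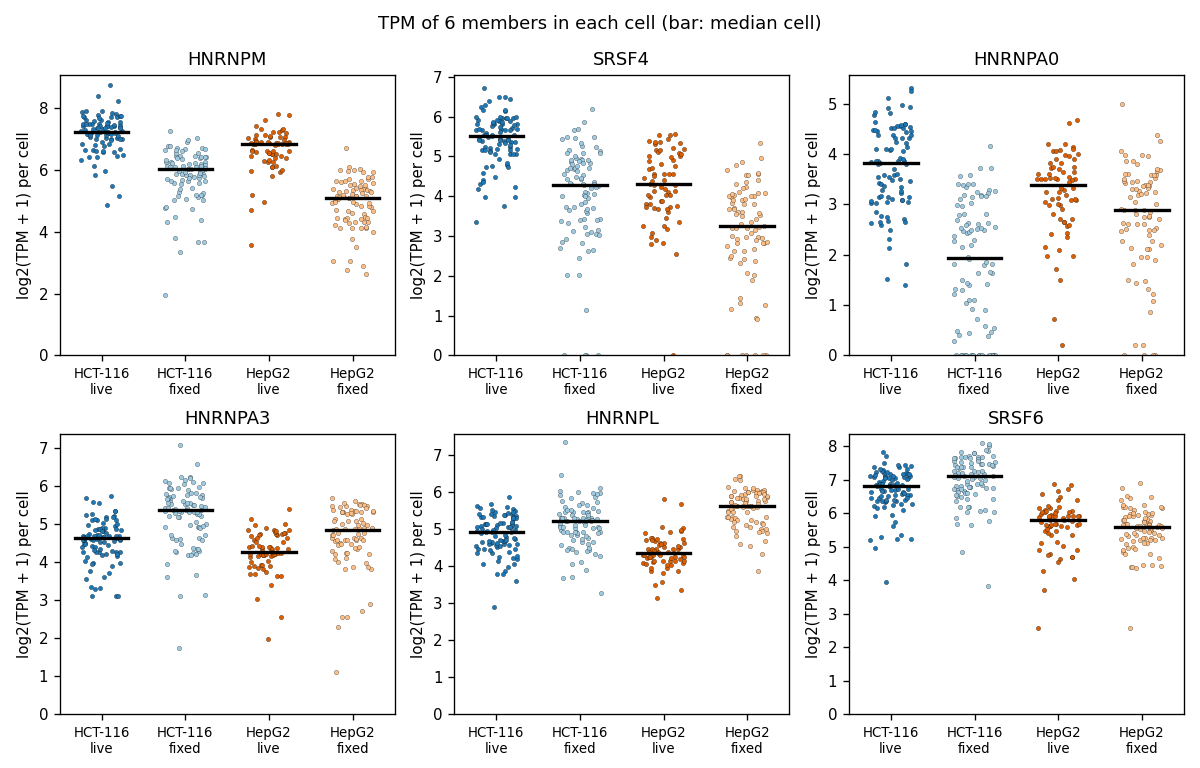
Level of 6 members in each cell as log2(TPM + 1), with 1 point per cell and a bar at the median cell of each group (91, 92, 68 and 83 cells from left to right). HNRNPM and SRSF4 sit lower in fixed cells of both lines, HNRNPL sits higher in fixed HepG2 cells, and SRSF6 differs between lines more than between treatments.

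HNRNPA3, a close relative of HNRNPA1 and HNRNPA2B1, was higher in fixed cells. It ran from 7.58 to 52.6 TPM (median 23.7) in live and from 2.34 to 133.6 TPM (median 40.2) in fixed HCT-116 cells, and from 2.96 to 41.04 TPM (median 18.2) and 1.15 to 50.3 TPM (median 27.7) in HepG2. The groups overlapped, with 21 of 92 and 18 of 83 fixed cells below the live median. Its mean was 1.70-fold higher in HCT-116 (24.1 ± 9.17 to 41.01 ± 20.3 TPM, log2 ratio 0.77) and 1.42-fold higher in HepG2 (19.5 ± 6.76 to 27.6 ± 11.6 TPM, log2 ratio 0.50). With ribosomal RNA left out the log2 ratios were 0.46 and 0.33, below the 1.5-fold line in both lines. With cells paired on total reads they were 0.77 and 0.66, above that line in both, and with each cell divided by its median ratio 0.58 and 0.28, below it.

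HNRNPL, which binds CA repeats, ran from 7.83 to 55.5 TPM (median 19.4) in live and from 13.7 to 86.6 TPM (median 48.9) in fixed HepG2 cells. The groups overlapped, with 2 of 83 fixed cells below the live median and 30 above the highest live cell. The mean was 2.36-fold higher (20.9 ± 7.67 to 49.3 ± 15.3 TPM, log2 ratio 1.24, and 1.28 without the 6 very similar columns). In HCT-116 the mean was 29.9 ± 10.3 TPM in live and 37.5 ± 19.3 in fixed cells (log2 ratio 0.33, and 0.02 with ribosomal RNA left out). The record NM_001005335 averaged 17.4 ± 14.2 CPM in live and 34.9 ± 25.7 CPM in fixed HCT-116 cells, and 19.01 ± 14.7 and 40.1 ± 31.3 CPM in HepG2. A second coding record, NM_001533, went from 8.59 ± 9.77 to 3.59 ± 8.18 CPM in HCT-116 and was below 0.1 CPM in both HepG2 groups. The listed HNRNPL records did not account for the TPM of the gene, so no shares are given.

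HNRNPUL2 and HNRNPUL2-BSCL2, the remaining pair past the fold, were near the filter. HNRNPUL2 went from 0.828 ± 1.14 to 1.51 ± 1.68 TPM in HepG2 and HNRNPUL2-BSCL2 from 1.10 ± 1.65 to 1.84 ± 3.19 TPM in HCT-116, where its median cell was lower in fixed cells (0.444 TPM live, 0.401 fixed).

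The 10 other SR genes that passed were within 1.5-fold in both lines as deposited: SRSF1 (log2 ratio -0.19 in HCT-116 and -0.29 in HepG2), SRSF2 (-0.30 and -0.39), SRSF3 (0.42 and 0.18), SRSF5 (0.02 and -0.32), SRSF6 (0.34 and -0.14), SRSF7 (0.37 and 0.15), SRSF8 (0.01 and 0.34), SRSF9 (-0.44 and 0.18), SRSF10 (0.42 and 0.26) and SRSF11 (0.33 and 0.28). Among the abundant hnRNP genes, HNRNPA1 was at 0.43 and 0.24, HNRNPC at 0.45 and 0.34, HNRNPH1 at 0.37 and 0.24, HNRNPK at 0.15 and 0.10, HNRNPF at 0.04 and -0.14 and HNRNPA2B1 at 0.13 and -0.13. Of 32 members that passed in both lines, 13 had a mean above the live mean in both and 8 had one below it in both, beside 5276 and 2693 of 10392 genes. Pearson's r between the lines' log2 ratios was 0.64 over these 32 members and 0.42 without HNRNPM and SRSF4, beside 0.61 over 10392 genes. The lines share no cells, but they share the order of library preparation.

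**Figure D3:**
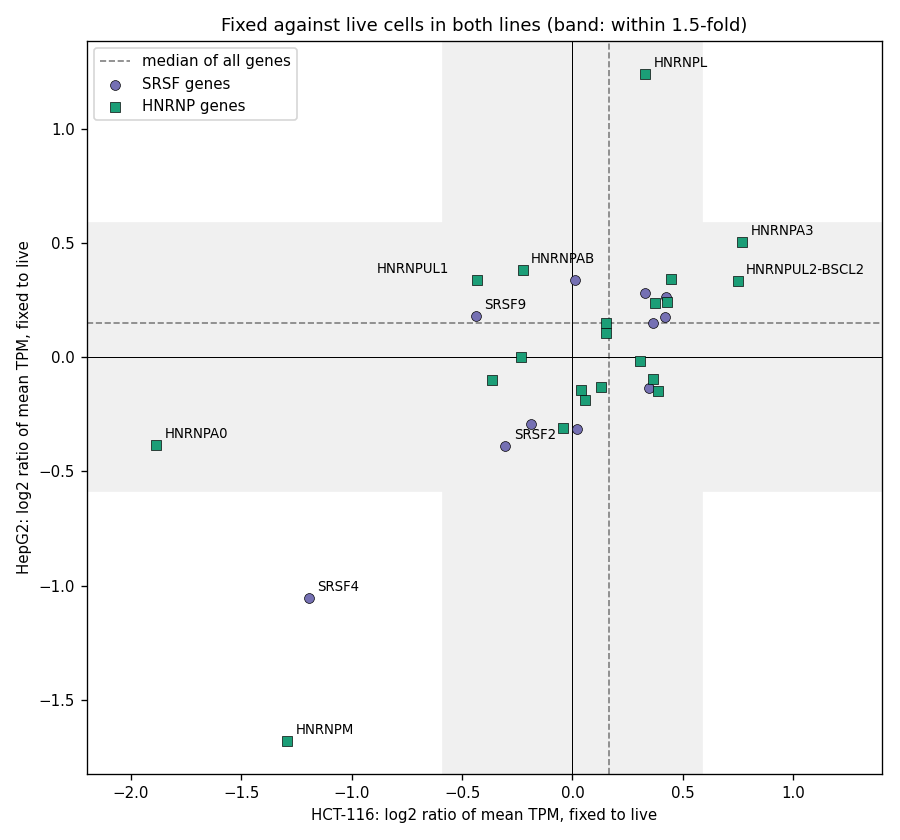
Log2 ratio of mean TPM in fixed to live cells in HCT-116 (x) and HepG2 (y) for 32 members, with the grey bands marking less than 1.5-fold and the dashed lines the median of all genes (0.17 and 0.15). HNRNPM and SRSF4 lie low on both axes, HNRNPA0 on the x axis and HNRNPL high on the y axis, and the rest lie around the medians.

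Whether promoter sequence bears on the ratio of fixed to live cells was not tested. The promoters of HNRNPM and SRSF4, both lower in fixed cells of both lines, are shown with that of HNRNPA3. Each is 300 bases (250 before the start of the gene and 50 after) from RefSeq on GRCh38.p14, 5′ to 3′ on the strand of the gene, with matches to 4 motifs in capitals. HNRNPM lies on the plus strand at chr19:8444725-8445024, SRSF4 on the minus strand at chr1:29181851-29182150 and HNRNPA3 on the plus strand at chr2:177212544-177212843.
HNRNPM: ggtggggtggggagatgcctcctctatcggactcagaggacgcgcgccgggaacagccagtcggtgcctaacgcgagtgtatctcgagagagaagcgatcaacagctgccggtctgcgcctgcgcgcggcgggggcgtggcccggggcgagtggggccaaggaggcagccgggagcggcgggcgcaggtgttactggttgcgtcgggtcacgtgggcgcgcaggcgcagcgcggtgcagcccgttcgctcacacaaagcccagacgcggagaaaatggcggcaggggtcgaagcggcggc
SRSF4: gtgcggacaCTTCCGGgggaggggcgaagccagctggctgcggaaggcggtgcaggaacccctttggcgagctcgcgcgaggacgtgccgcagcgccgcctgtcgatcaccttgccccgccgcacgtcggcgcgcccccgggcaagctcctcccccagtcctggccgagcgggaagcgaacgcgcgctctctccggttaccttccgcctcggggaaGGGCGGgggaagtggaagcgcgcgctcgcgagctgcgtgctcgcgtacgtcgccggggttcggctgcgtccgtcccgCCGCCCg
HNRNPA3: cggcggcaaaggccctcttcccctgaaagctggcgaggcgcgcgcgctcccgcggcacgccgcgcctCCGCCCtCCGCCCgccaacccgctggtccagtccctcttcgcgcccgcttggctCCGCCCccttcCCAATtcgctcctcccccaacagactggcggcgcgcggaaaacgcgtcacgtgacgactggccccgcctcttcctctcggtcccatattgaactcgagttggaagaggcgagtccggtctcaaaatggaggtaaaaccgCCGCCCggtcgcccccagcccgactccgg

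The motifs, searched on both strands, were the GC box (spelled GGGCGG), the CCAAT box, the TATA box (spelled TATAAA) and the ETS core (spelled CCGGAAG). The GC box was in 22 of 35 member promoters with an entry and in 44.6% of 27305 promoters, the CCAAT box in 18 and 35.7%, the TATA box in 5 and 12%, and the ETS core in 5 and 10.7%. The SRSF4 window held 2 GC boxes and 1 ETS core, the HNRNPA3 window 4 GC boxes and 1 CCAAT, and the HNRNPM window none of the 4. The GC content was 70.7% for HNRNPM, 74.7% for SRSF4 and 70% for HNRNPA3.

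Over the transcripts themselves, HNRNPM (53.1% GC in the GENCODE canonical transcript, 2477 bases), SRSF4 (51.4%, 2300 bases) and HNRNPL (54.3%, 2142 bases) were above the member median of 42.3% GC. HNRNPA0 (41.02%, 8713 bases) was below it. In HCT-116 the median log2 ratio was -0.37 over 8 members at 48% GC or more and 0.23 over 24 below. The medians over all genes were -0.13 and 0.31. In HepG2 they were 0.33 over 9 members and -0.009 over 24, beside -0.02 and 0.26 over all genes. Whether GC content bears on the ratio was not tested. Spearman's rho between the log2 ratio and GC content was -0.33 over 32 members in HCT-116 and 0.07 over 33 in HepG2, beside -0.48 and -0.30 over all genes with a sequence (10451 and 10801). Against log10 length it was 0.08 and 0.12 over the members. The canonical transcript stands in for the RefSeq records counted.

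The next comparison asked whether the mix of coding and non-coding transcripts of a gene differed between fixed and live cells. A record was called non-coding by its RefSeq prefix, and the share is the percent of the gene's mean CPM on such records. Of the members at 10 TPM or more, 7 had records of both kinds that accounted for the gene's TPM. In HCT-116 the non-coding share was lower in fixed cells in 5 of them, beside 50.9% of 558 genes, and in HepG2 in 6 of 7, beside 57.9% of 575 genes. The median difference over the 7 was -1.85 percentage points in HCT-116 and -1.97 in HepG2, and over all those genes -0.02 and -0.21. The HCT-116 median was -0.14 points, with 4 of 7 lower, when the mean of the percent per cell was used, and -1.08 points over 8 members with no limit on how well the records account for the gene.

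In SRSF2, a nuclear SR protein whose excess is known to switch its own RNA to decay-prone forms, the share went from 15.3% to 12.6% in HCT-116 and from 13.2% to 9.31% in HepG2. Taken as the mean of the percent per cell, the HCT-116 difference turned to 0.94 points, while it stayed negative in HepG2, and in SRSF3 and SRSF6 in both lines. That of SRSF1 in HCT-116 turned as well, from -0.32 to 1.59 points. The SRSF2 record NR_036608 averaged 22.7 ± 20.7 CPM in live and 8.05 ± 14.3 CPM in fixed HCT-116 cells, and 12.9 ± 14.8 and 4.71 ± 9.14 CPM in HepG2. The other non-coding records of SRSF2, XR_429913 and XR_429914, were higher in share in fixed HCT-116 cells (3.34% to 5.27% and 3.09% to 3.57%). They were lower in HepG2 (5.75% to 5.16% and 2.98% to 1.89%). In SRSF3, the smallest SR protein, whose poison exon is printed above, the share went from 7.46% to 5.62% and from 7.96% to 5.05%. The SRSF3 gene level was higher in fixed cells as deposited (log2 ratio 0.42 and 0.18), beside medians of 0.17 and 0.15 over all genes. With ribosomal RNA left out it was at 0.12 and 0.004, beside -0.15 and -0.03 over all genes. In HepG2 it was at -0.02 when each cell was divided by its median ratio. Whether level and share go together was not tested. In SRSF6, a regulator of tau exon splicing, the share went from 3.33% to 1.35% and from 5.32% to 1.43%. Its record NR_034009 averaged 9.87 ± 12.95 and 5.49 ± 11.9 CPM in HCT-116, and 9.0 ± 17.2 and 2.17 ± 9.10 CPM in HepG2, so single cells varied by more than the mean.

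Of the other 4, only SRSF1 had the lower share in fixed cells of both lines, by group means. HNRNPDL, an AU-rich element binding protein, went from 34.5% to 28.6% in HCT-116 and from 17.9% to 20.9% in HepG2. HNRNPA1 went from 7.41% to 7.499% and from 7.23% to 5.26%. SRSF10, which represses splicing when dephosphorylated, went from 1.12% to 1.69% and from 1.36% to 0.619%, and SRSF1, the founding SR protein, from 1.41% to 1.09% and from 0.675% to a value at the limit of estimation. SRSF8 was at 4.64 TPM, under the level asked for: its share went from 30.2% to 29.5% in HCT-116 and from 41.5% to 37.5% in HepG2.

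**Figure D4:**
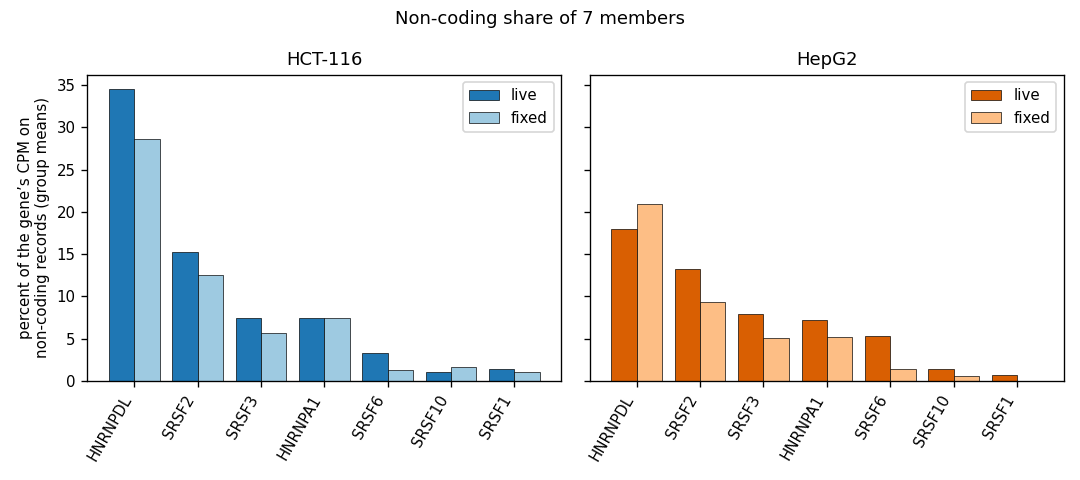
Percent of a gene's mean CPM on non-coding RefSeq records in live and fixed cells of both lines, for 7 members ordered by their live share. Bars for SRSF2, SRSF3 and SRSF6 are shorter in fixed cells of both lines, and HNRNPDL differs in direction between the lines.

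Coding records of a gene also differed in share. These were chosen after their values were seen, and carry no test. SRSF2 NM_003016 went from 14.9% to 7.63% of the gene's CPM in HCT-116 and from 10.8% to 3.41% in HepG2. HNRNPA1 NM_031157, which encodes the longer A1-B protein, went from 14.2% to 8.24% and from 5.54% to 2.65%, and SRSF1 NM_001078166 from 29.9% to 23.1% and from 15.4% to 8.25%. SRSF4 NM_005626 went from 71.7% to 64.9% and from 55.9% to 42.4%; its other record, XM_011541951, averaged 22.1 ± 16.2 CPM in live and 13.1 ± 13.6 CPM in fixed HCT-116 cells. In each of these the lower share was in fixed cells of both lines, but they were chosen with those values in view. Other coding records moved in opposite directions in the lines, such as HNRNPD NM_031369 (13.3% to 24.1% in HCT-116 and 39.4% to 33.8% in HepG2).

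The third comparison asked how the members differed between the lines. In live cells, 1 of 32 members was at least 1.5 times higher in HepG2 (HNRNPH2) and 6 at least 1.5 times lower (SRSF4, SRSF6, SRSF8, SRSF11, HNRNPC and HNRNPA0), where 32.4% and 27.9% of 12406 genes were. In fixed cells 4 of 33 were higher (HNRNPH2, HNRNPA0, HNRNPUL2 and HNRNPLL) and 7 lower (SRSF6, SRSF4, HNRNPM, SRSF11, HNRNPC, HNRNPD and HNRNPA2B1), where 32.5% and 27.6% of 12110 genes were. The median log2 ratio of HepG2 to HCT-116 was -0.28 over the members in live cells and -0.12 in fixed cells, and 0.07 over all genes in both treatments. With ribosomal RNA left out it was -0.45 over the members in live cells and -0.14 in fixed cells, beside -0.09 and 0.05 over all genes.

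HNRNPH2, an X-linked relative of HNRNPH1 that binds G runs, ran from 0 to 77.8 TPM (median 30.8) in live HCT-116 and from 0 to 237 TPM (median 97.2) in live HepG2 cells, and 47 of 68 HepG2 cells lay above the highest HCT-116 cell. The mean was 3.12-fold higher in HepG2 in live cells (log2 ratio 1.64) and 2.15-fold higher in fixed cells (log2 ratio 1.10). Its sequence is close to that of HNRNPH1, and reads could be shared between them. SRSF6 ran from 14.5 to 225 TPM (median 110.6) in live HCT-116 and from 4.91 to 117.2 TPM (median 54.1) in live HepG2 cells, with 66 of 68 HepG2 cells below the HCT-116 median. It was 2.03-fold lower in HepG2 in live cells and 2.84-fold lower in fixed cells (log2 ratios -1.02 and -1.50). SRSF4 (-1.09 and -0.95), SRSF11 (-0.82 and -0.87) and HNRNPC (-0.68 and -0.78) were lower in HepG2 in both treatments. HNRNPA0 was lower in HepG2 in live cells (-0.59) and higher in fixed cells (0.91). Apart from the equal columns, the live and the fixed comparison share no cells.

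Members also varied between the cells of a group. Over 28 members with a mean of at least 10 TPM in the 4 groups, the median CV (SD divided by mean) was 0.400 in live HCT-116 cells, 0.501 in fixed ones, and 0.391 and 0.424 in HepG2. Fixed cells had the higher CV for 25 of 28 in HCT-116, where it was for 84.1% of 5339 genes at that level, and for 20 of 28 in HepG2, where it was for 58.6% of 5358. HNRNPC had the lowest CV in live and fixed HCT-116 cells (0.190 and 0.207) and in live HepG2 cells (0.314), and HNRNPA1 in fixed HepG2 cells (0.262). HNRNPLL, a regulator of CD45 splicing in lymphocytes, had the highest CV in fixed HCT-116 cells (0.883), and HNRNPAB in both HepG2 groups (0.557 and 0.800). With each cell divided by its median ratio, HNRNPLL had the highest CV in both HepG2 groups (1.11 and 1.30) and HNRNPK the lowest in every group but fixed HCT-116 cells, so these ranks depended on the scaling. HNRNPU, the nuclear scaffold protein, went the other way in HCT-116, from 0.683 in live to 0.500 in fixed cells. Depth was lower in fixed cells (medians of 1.8 and 2.0 M reads, against 2.5 and 2.4 M reads in live cells), and its part in the CV was not tested.

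**Figure D5:**
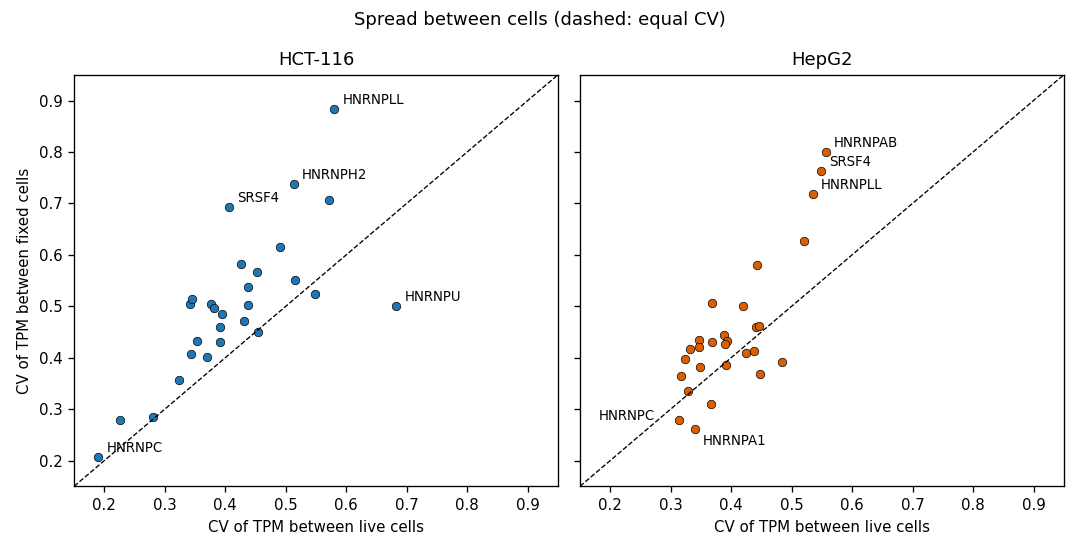
Coefficient of variation of TPM between live cells (x) and between fixed cells (y) for 28 members in each line, with the dashed line at equal values. Most HCT-116 points lie above the line, HNRNPU being the farthest below it.

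Beside the members, 4 lists of splicing genes gave the setting. Their counts are to be read beside all genes, of which 12% were higher and 16.2% lower in fixed HCT-116 cells. In HepG2 15.5% were higher and 17.3% lower. The median log2 ratios of all genes were 0.17 and 0.15. Of 26 SR-related genes and SR protein kinases, 4 were at least 1.5 times higher and 1 lower in fixed HCT-116 cells, and 1 higher and 2 lower in HepG2. The medians of this list were 0.26 and 0.12. SON, a speckle protein, went from 24.7 ± 9.61 to 47.6 ± 18.1 TPM in HCT-116 and from 30.3 ± 9.07 to 43.5 ± 16.4 TPM in HepG2 (log2 ratios 0.95 and 0.52), and SRRM1 had ratios of 0.63 and 0.60. RSRP1 (-0.85 and -0.58) and PNN (-0.45 and -0.81) had the lowest ratios.

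Of 27 binding proteins of the hnRNP class with other symbols, 2 were higher and 6 lower in HCT-116, and 6 higher and 4 lower in HepG2. The medians of this list were 0.06 and 0.16. TAF15, an RNA-binding protein that also associates with transcription complexes, was at log2 ratios of 1.88 and 0.92, PCBP2 at 0.43 and 1.02, and ESRP2, an epithelial splicing regulator, at -1.56 and -1.18.

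Of 49 core spliceosome genes, 4 were higher and 5 lower in HCT-116, and 8 higher and 4 lower in HepG2, with medians of 0.33 and 0.40, above those of all genes. PRPF19 (1.32 and 1.51) and U2AF2 (0.76 and 1.15) had the highest ratios, both at under 5 TPM, and PRPF6 (-0.67 and -1.11) and CD2BP2 (-0.75 and -1.05) the lowest. Of 16 genes of nonsense-mediated decay and the exon junction complex, 2 were higher and 2 lower in HCT-116, and 2 higher and 3 lower in HepG2. The medians of this list were 0.23 and 0.22. SMG5 was at -1.50 and -1.80 and CASC3 at -0.62 and -0.74, while UPF1, the central decay helicase, was at 1.52 and 1.05 with means of 0.854 to 3.34 TPM, and UPF2 at 0.78 and 0.59. The lists were chosen with earlier results of these data known.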

How the data were processed

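Single live cells and single cells kept in methanol were sequenced by Smart-seq2. Per the labels, kallisto 0.46.0 and the GRCh38 build were used, and the authors deposited TPM per gene (summed with tximport) and, per transcript record, values that are CPM, not divided by length. Of 346 labelled cells, 12 have no column. A log2 ratio is that of mean TPM, and a gene counts as higher or lower at 1.5-fold with a mean of at least 1 TPM. No count or test model was used, as the labels leave each group as 1 sample (the replicate experiments in HepG2 cannot be told apart). Shares of cells carry exact (Clopper-Pearson) 95% intervals for counting error only. Records were assigned to genes by RefSeq accession (66295 of 107497 in HCT-116, 65874 of 106541 in HepG2), and a gene's records were taken to account for it where a non-negative fit of its TPM on them had an R2 of at least 0.95, a limit chosen after seeing the data. Named genes are the 10 of highest level, the 4 highest and 4 lowest ratios per comparison, the members of the transcript comparison, and 2 from each end of every list, of which 1 is not reported here. Members and lists were chosen with earlier results of these data known. Alternatives were other scalings, filters, folds and cells. Proteins and RefSeq transcript lengths were not used here. The computations, in Python 3.11.15 with numpy, pandas, scipy and matplotlib, were tested on simulated data.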

Additional observations from a re-analysis of the deposited data

Results flagged for a closer look

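As deposited, in 3 members the ratio of fixed to live cells had opposite signs in the lines and differed by at least 1.5-fold. This difference was not tested. The signs were the same in both lines in 21 of 32 members and in 7969 of 10392 genes. The share of all genes that met both conditions was not counted, so the 3 are not read as particular to these families. HNRNPUL1 was at -0.43 on the log2 scale in HCT-116 and 0.34 in HepG2, a difference of 0.77. SRSF9 was at -0.44 and 0.18, a difference of 0.62. HNRNPAB was at -0.22 and 0.38, a difference of 0.61. As deposited, each ratio by itself was within 1.5-fold. With ribosomal RNA left out, HNRNPUL1 (-0.74) and SRSF9 (-0.76) were past it in HCT-116, and with cells paired on total reads HNRNPUL1 was in HepG2 (0.60). With each cell divided by its median ratio, SRSF9 was at -0.61 and -0.04 and HNRNPAB at -0.40 and 0.07, so neither met both conditions.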

How the results depend on the processing

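With each cell divided by its median ratio, fixed HCT-116 cells had 1 member higher and 5 lower, in place of 2 and 3. Over all genes 695 were higher and 2645 lower of 12022, in place of 1414 and 1897 of 11742. With ribosomal RNA left out 0 members were higher and 7 lower, beside 472 and 3284 of 12318 genes. With the mean of log2(TPM + 1) or log2(TPM + 0.1), 1 member was higher and 5 lower. Of 11813 genes 290 were then higher and 1870 lower, or 513 and 3724. With medians or at 10 TPM 1 member was higher, beside 958 of 9110 and 452 of 5339 genes. At a fold of 2 the number higher was 0, beside 319 of 11742 genes. In HepG2 the number higher in fixed cells, 2 as reported, was 1 with log2(TPM + 1), a fold of 2 or at least 10 TPM. Over all genes 1019 of 12486, 593 of 12418 and 649 of 5358 were higher. The number of members was 5 with no filter and 4 with cells paired on total reads (38 in each group). Over all genes these settings gave 4935 of 26127 and 3084 of 12280. Between the lines, 11 of 32 members were lower in live HepG2 cells with ribosomal RNA left out (beside 4356 of 13167 genes) and 2 at a fold of 2 (beside 2291 of 12406), in place of 6. The number higher there, 1 as reported, was 2 with log2(TPM + 0.1) or medians and 3 with no filter. The counts over all genes were 4704 of 12481, 3096 of 9609 and 10677 of 25335. In fixed cells 1 was higher and 1 lower at a fold of 2, in place of 4 and 7, beside 2628 and 2146 of 12110 genes. At 10 TPM 2 members were higher, beside 1403 of 5387 genes. HNRNPUL2-BSCL2 reversed with medians in HCT-116 (-0.15).

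For the SR-related list, the median ratio gave 2 higher and 5 lower in HCT-116 and 0 and 5 in HepG2, and leaving out ribosomal RNA gave 1 and 5, and 0 and 4. For the hnRNP-class list in HCT-116, both gave 1 higher, and leaving out ribosomal RNA gave 10 lower. For the core spliceosome both gave 1 higher in HCT-116, and in HepG2 4 with the median ratio and 5 without ribosomal RNA. For the decay list, 1 was higher in HepG2 under both, and 1 in HCT-116 without ribosomal RNA. Over all genes, both scalings also gave fewer higher and more lower genes than as deposited, in HCT-116 and in HepG2. These shifts are therefore not read as particular to the lists. The causes were not tested. Under the remaining settings the counts of members higher or lower, detected, with the higher CV or with the lower non-coding share stayed within 1.5-fold of the reported value. Over the settings the median log2 ratio of the members ran from -0.17 to 0.15 between fixed and live HCT-116 cells and from -0.07 to 0.21 in HepG2, and from -0.45 to -0.13 and -0.28 to -0.04 between the lines in live and fixed cells. For the transcript counts, leaving out the equal columns or the limit on the record fit was chosen after seeing the data.

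No paired analysis was possible because cells are single samples whose column numbers match no label, and no result comes from a test. At medians of 1.8 to 2.5 M reads (M, mega) per cell, 4 or 5 members were detected in under 50% of the cells of a group, and the part of depth in this was not tested.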

Other observations

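Of the 4 rows left out as pseudogenes, HNRNPA1P10 averaged, in HCT-116, 1.26 ± 2.93 TPM in live cells and 1.26 ± 2.52 TPM in fixed ones, and 0.898 ± 1.58 and 0.837 ± 1.21 TPM in HepG2, and it had a TPM above 0 in 48 of 91, 43 of 92, 34 of 68 and 44 of 83 cells. HNRNPA1P33, HNRNPA3P1 and HNRNPKP3 averaged below 1 TPM in all 4 groups. The listed records of HNRNPA2B1 did not account for the TPM of the gene. Their non-coding share in HCT-116 was 38.02% in live cells and 44.7% in fixed ones, and 45.5% and 36.99% in HepG2.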
